A study of Mus musculus with 15 samples.

Results

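The growth hormone and insulin-like growth factor (IGF) axis of the liver was followed through 10 genes, Ghr, Igf1, Igfals, Igfbp1, Igfbp2, Igfbp4, Socs2, Cish, Stat5a and Stat5b. They were found by gene symbol among the 55450 Ensembl gene IDs of the count table, and all 10 were among the 15808 genes that passed the filter on low counts. Messenger RNA was sequenced from the liver of 15 female C57BL/6 mice, with 1 library per mouse and 5 mice per group. Adult mice, named A1 to A5, began at an age of 6 months and were gavaged daily with corn oil, the vehicle, for 9 weeks. Old mice, named O1 to O5, began at 22 months and received the same vehicle. The PDX group, P1 to P5, began at 22 months too and received protectin DX, a lipid mediator derived from docosahexaenoic acid, in corn oil at 30 ng per g of body weight. All mice came from the National Institute on Aging and ate the same chow, and no PDX was given to mice of the Adult age. The comparisons asked which genes differed with age (Old against Adult) and which differed with PDX at the same age (PDX against Old), and PDX was also set against Adult.

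Growth hormone reaches the hepatocyte through its receptor, encoded by Ghr, which activates the kinase JAK2 and the transcription factors STAT5A and STAT5B. STAT5 induces Igf1 and Igfals, whose products travel in blood as a complex with an IGF binding protein, and it induces Socs2 and Cish, which damp the signal in turn. The IGF binding proteins hold IGF in the circulation and limit its access to receptors, and Igfbp1 is known for its rise in fasting and when insulin is low.

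In these livers no axis gene was called by edgeR in any comparison, where 6.78% of all genes were called between Old and Adult, 0% between PDX and Old and 2.66% between PDX and Adult. The mice of the Old group differed widely from each other in most axis genes, and for 8 of the 10 the spread among Old mice was above that of the median gene, while for Igf1 and Stat5b it was below. A median by definition splits all genes evenly. Against the median gene of the same mice, the count was 5 in Adult mice, 7 in PDX mice and 6 in Old mice without O5. The level of Igf1 in the Old mice lay within 1.09-fold in the main scaling of the libraries, an evenness that depended on that scaling. Ghr ranged 30.6-fold, Igfals 17.7-fold and Igfbp1 42.6-fold across the same 5 mice. At the ends of these ranges stood O5, with the lowest Ghr and Igfals and the highest Igfbp1 and Socs2 of all 15 mice, and O1, with the highest Ghr.

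The libraries held 22424383 to 36070835 counted read pairs, and the lowest count of an axis gene in any library was 161, so counting error was small beside the differences between mice for most of these genes. O5 was the highest or lowest mouse of the 15 for 7 of the 10 axis genes, and it held that place for 54.3% of all genes tested. The same share was 32.5% for O2, 20.2% for O1 and 3.26% to 13.5% for each other mouse. The 8 hepatocyte markers summed to 128754 to 142895 CPM (counts scaled to an equal library size with TMM factors) in Adult mice, to 62794 in O5, 77550 in O2 and 205744 in O1, and to 113532 to 166781 in PDX mice, and no marker was at 0 in all mice. The albumin gene Alb alone made up 34724 CPM of the sum in O5 and 180125 CPM of that in O1. In bulk liver, fewer hepatocytes, less RNA per hepatocyte and a changed level of the markers themselves cannot be told apart.

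O5 had the lowest Igfals and the highest Igfbp1 of the 15 mice and an Igf1 within the narrow range of the Old group. For that reason stretches just upstream of RefSeq starts of Igfals, Igfbp1 and Igf1 are shown. Each is the 250 bases before a RefSeq transcription start in GRCm38.p6, written 5′ to 3′ on the strand of the gene, with motif matches in capitals. On Igfals and Igf1 the search was for TTCNNNGAA, the palindrome that STAT5 recognizes, and on Igfbp1 for CAAAACA, the core of the insulin response sequence bound by FOXO factors. Both motifs were searched on both strands. The annotated spans of Igf1 and Igfals begin farther upstream, at 87858265 and 24865997, so the windows of Igf1 and Igfals lie inside the genes. The stretches before those span starts were not searched.
Igfals, chr17:24877981-24878230, plus strand, TTCNNNGAA 58 bases upstream: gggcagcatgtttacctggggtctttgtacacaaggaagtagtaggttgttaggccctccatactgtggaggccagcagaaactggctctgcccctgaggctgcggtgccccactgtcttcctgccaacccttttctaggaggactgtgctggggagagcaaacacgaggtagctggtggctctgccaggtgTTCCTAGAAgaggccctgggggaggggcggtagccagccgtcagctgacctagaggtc
Igfbp1, chr11:7197537-7197786, plus strand, CAAAACA 108 bases upstream: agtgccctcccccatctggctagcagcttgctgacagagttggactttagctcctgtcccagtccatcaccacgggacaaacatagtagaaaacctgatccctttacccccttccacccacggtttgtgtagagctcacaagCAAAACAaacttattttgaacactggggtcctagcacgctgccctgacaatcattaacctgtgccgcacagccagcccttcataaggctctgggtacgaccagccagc
Igf1, chr10:87860861-87861110, plus strand, no match: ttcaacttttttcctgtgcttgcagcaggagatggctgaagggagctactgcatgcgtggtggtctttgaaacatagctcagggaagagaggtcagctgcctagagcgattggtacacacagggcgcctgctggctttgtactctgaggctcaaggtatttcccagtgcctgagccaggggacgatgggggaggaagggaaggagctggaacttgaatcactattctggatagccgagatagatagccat
Of 32851 RefSeq windows of this length, 7.02% held TTCNNNGAA and 5.56% held CAAAACA. Of the other starts of Igfals, 1 had TTCNNNGAA 236 bases upstream and 1 had no match. The windows found for Ghr, Igfbp2, Igfbp4, Cish, Stat5a and Stat5b had neither motif. No window was available for Socs2, so it was not searched. A match is a description of these letters and not a measured binding site, and the part of either motif in the levels was not tested.

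Compared per exon length, as FPKM, the binding proteins stood at the top and the feedback genes at the bottom. FPKM divides the CPM by the merged length, in kilobases, of all annotated exons of a gene. That length was 9531 bases over 14 transcripts for Socs2 and 1525 over 1 for Igfbp1, so the order depends partly on the annotation. Igfbp4 had a median of 355 FPKM over the 15 mice and Igfbp2 of 297, and their ranges overlapped. Igfbp1 followed at 123, with a range of 13.3 to 3609 that reached past every other axis gene in O5. Igfals at 45.5, Ghr at 42.1 and Igf1 at 33.4 formed the middle, with overlapping ranges. Stat5b at 12.1 lay, by its median, above Stat5a at 3.34, Socs2 at 2.73 and Cish at 2.52, and these last 3 overlapped.

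**Figure D1:**
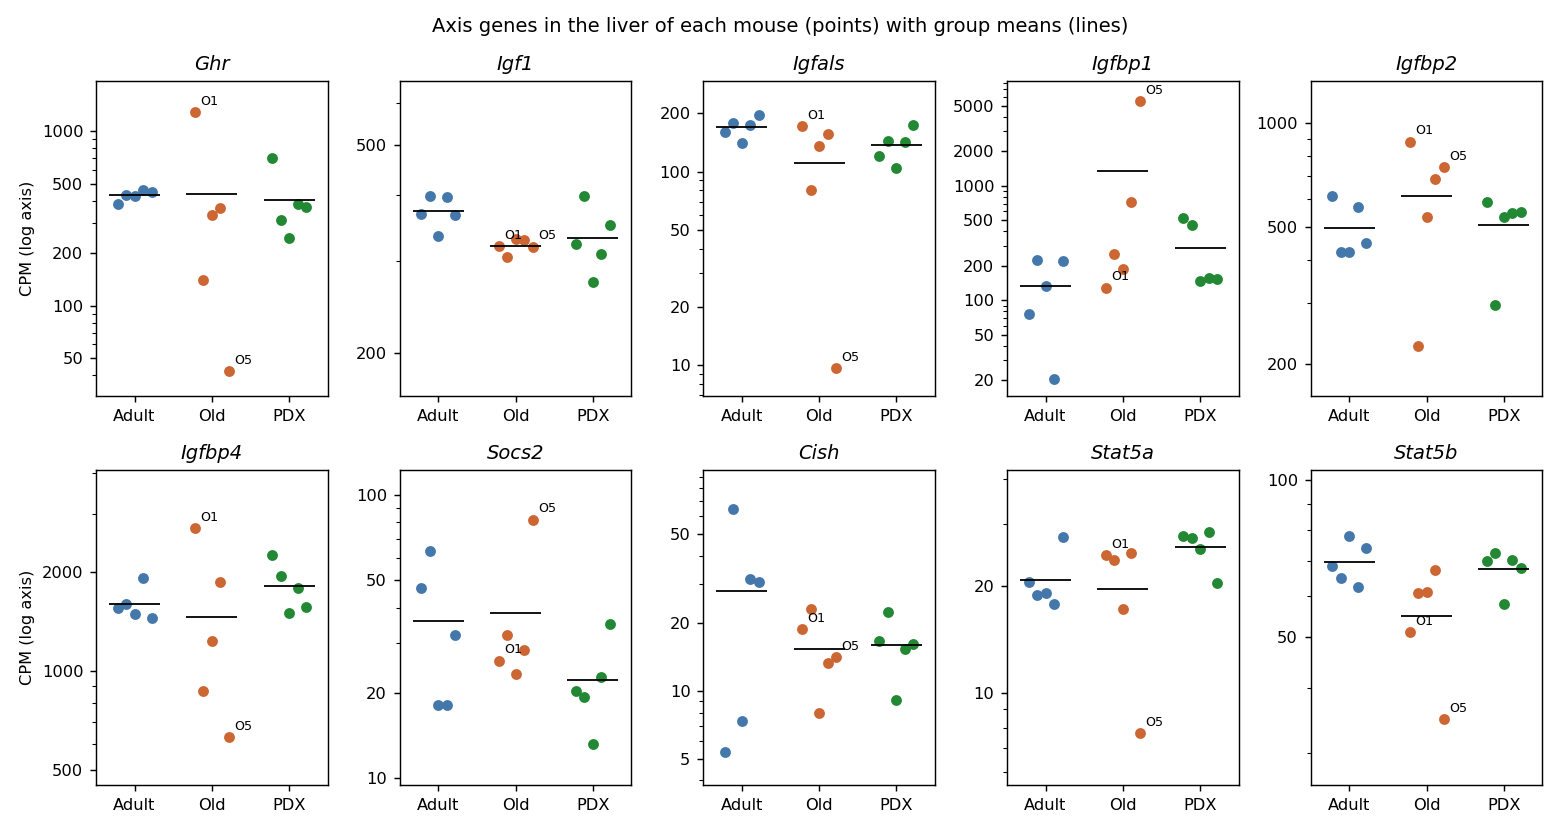
Level of each axis gene in each mouse, in CPM on a log axis, with a point per mouse, a line at the group mean and the Old mice O1 and O5 labelled. Igf1 of the Old mice sits between 305 and 331 CPM while Ghr of the same mice runs from 42.4 to 1297 CPM.

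The receptor gene Ghr (ENSMUSG00000055737, chr15:3317760-3583492, minus strand, GRCm38) was measured at gene level, so that its membrane-bound and secreted forms were counted together. The Adult mice had 385, 434, 427, 464 and 450 CPM. The Old mice had 1297, 141, 333, 364 and 42.4 CPM. The PDX mice had 707, 312, 244, 381 and 367 CPM. The Adult values stood close together, and the Old values fell on both sides of all of them. The group means were 432 ± 30.1, 436 ± 500 and 402 ± 179 CPM (SD, n = 5 each). Old and Adult thus had almost equal means, with a log2 fold change of 0.01 (SE 0.60, adjusted p = 0.991 by edgeR's quasi-likelihood test, adjusted by Benjamini-Hochberg over all genes tested), and the log2 fold change was -0.96 without O1 and 0.31 without O5. Between PDX and Old it was -0.11 (SE 0.60, edgeR adjusted p = 0.968), and it turned to 0.87 without O1. O1 had 5.47 times the median of the other Old mice, and O5 was 8.23-fold below that median.

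Genes that followed Ghr most closely over the 15 mice were Asgr2, a subunit of the hepatocyte asialoglycoprotein receptor, with Pearson r of log2 CPM of 0.97, and Necab1 and Slc16a11, both at 0.96, out of 12013 genes compared, as a description of mice that share their library scaling. Without O5 these were 0.95, 0.91 and 0.93. The prolactin receptor gene Prlr, named after its values were seen, had its highest level in O1 (1247 CPM) and its lowest in O5 (20.4 CPM), against 284 to 393 CPM in Adult mice.

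Of the transcription factor genes, Stat5b (ENSMUSG00000020919, chr11:100780731-100850724, minus strand) was the more abundant per length in every mouse and Stat5a (ENSMUSG00000004043, chr11:100859351-100885169, plus strand) the less abundant. The 2 genes are close paralogs, and only uniquely aligned reads were counted, so their split is uncertain to that extent. Exons of Stat5a overlap those of Stat3 on the other strand, and the counting used strand.

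Stat5b had 68.3, 64.8, 78.2, 62.4 and 74.0 CPM in Adult, 51.1, 60.7, 61.0, 67.2 and 34.9 CPM in Old and 69.8, 72.4, 57.8, 70.3 and 67.9 CPM in PDX mice. In 4 of 5 Old mice it lay below every Adult mouse, and O4 lay among them. The mean was 69.5 ± 6.49 CPM in Adult, 55.0 ± 12.6 in Old and 67.6 ± 5.74 in PDX mice (SD, n = 5 each). Expressed as log2 fold change, Stat5b was at -0.34 for Old over Adult (SE 0.15, edgeR unadjusted p = 0.0399, adjusted p = 0.159) and 0.30 for PDX over Old (SE 0.15, edgeR adjusted p = 0.793), neither past the threshold. Without O5 these were -0.21 and 0.17. Over the alternative settings the Old over Adult adjusted p of edgeR and DESeq2 ran from 0.0887 to 0.337.

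Stat5a had 20.6, 18.9, 19.2, 17.9 and 27.5 CPM in Adult, 24.5, 23.8, 17.3, 24.9 and 7.72 CPM in Old and 27.7, 27.3, 25.5, 28.4 and 20.5 CPM in PDX mice. O5 was again the lowest mouse, 3.13-fold below the median of the other Old mice, and the remaining Old mice lay within the Adult range or just under it. Old over Adult gave a log2 fold change of -0.08 (SE 0.25, edgeR adjusted p = 0.857), which turned to 0.12 without O5, and PDX over Old gave 0.40 (SE 0.25, edgeR adjusted p = 0.793), which was 0.19 without O5.

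The feedback genes ranged widely among the Adult mice. Socs2 (ENSMUSG00000020027, chr10:95385362-95417180, minus strand), which encodes a suppressor of cytokine signaling that restrains growth hormone action, had 46.9, 63.7, 18.2, 18.1 and 32.0 CPM in Adult, 26.0, 31.9, 23.3, 28.4 and 81.9 CPM in Old and 20.2, 19.3, 13.2, 22.8 and 35.0 CPM in PDX mice. O5 held the highest value of the 15, 3.01 times the median of the other Old mice, and all groups overlapped. The log2 fold change for Old over Adult was 0.10 (SE 0.41, edgeR adjusted p = 0.902) and ran from -0.39 without O5 to 0.41 without A2. For PDX over Old it was -0.79 (SE 0.41, edgeR adjusted p = 0.793), and without O5 it was -0.31. PDX over Adult gave -0.69 (SE 0.41, edgeR adjusted p = 0.356), which was -0.38 without A2. Capn15, Dhx37 and Khsrp were nearest to Socs2 in pattern, with r of 0.82, 0.81 and 0.80, which became 0.70, 0.68 and 0.68 without O5.

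Cish (ENSMUSG00000032578, chr9:107296026-107302784, plus strand), which encodes another STAT5-induced suppressor, had 5.34, 64.4, 7.34, 31.4 and 30.5 CPM in Adult, 18.8, 23.1, 7.95, 13.3 and 14.1 CPM in Old and 16.6, 22.5, 9.12, 15.4 and 16.2 CPM in PDX mice. Both the highest and the lowest of all 15 mice were Adult, and the SD of log2 CPM among Adult mice exceeded that of 99.7% of all genes. For Igfbp1 and Socs2 the same percentages among Adult mice were 99.6% and 96.9%. Cish had a log2 fold change of -0.85 for Old over Adult (SE 0.52, edgeR adjusted p = 0.309) and 0.05 for PDX over Old (SE 0.52, edgeR adjusted p = 0.986). Without A2, the highest Adult mouse, Old over Adult was -0.28. The hour of collection and the feeding state of each mouse were not used here, and their part in the ranges of Cish, Socs2 and Igfbp1 was not tested. Exons of Cish overlap the predicted genes Gm17040 and Gm17041 on the other strand.

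The main secreted effector, Igf1 (ENSMUSG00000020053, chr10:87858265-87937042, plus strand), varied little. The Adult mice had 369, 400, 335, 398 and 368 CPM. The Old mice had 321, 305, 331, 329 and 319 CPM. The PDX mice had 323, 398, 274, 309 and 351 CPM. Every Old mouse lay below every Adult mouse, by a gap that was narrow beside either group's range, while the PDX mice overlapped both groups. Igf1 was the only axis gene, 1 of 10, whose Old and Adult values did not overlap, against 8.13% of all genes (4.48% with Old lower). The means were 374 ± 26.5 CPM in Adult, 321 ± 10.4 in Old and 331 ± 46.8 in PDX mice (SD, n = 5 each). The log2 fold change was -0.22 for Old over Adult (SE 0.12, edgeR adjusted p = 0.254), 0.05 for PDX over Old (SE 0.12, edgeR adjusted p = 0.926) and -0.18 for PDX over Adult (SE 0.12, edgeR adjusted p = 0.442).

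Among the Old mice the SD of log2 CPM of Igf1 was 0.05, and 6 of the 15808 genes had a smaller one, while the median gene had an SD of 0.53. Among Adult mice 18.1% of genes had a smaller SD than Igf1, and among PDX mice 44.4%. This evenness depended on the scaling. The TMM factors of the 15 mice ran from 0.88 in O1 to 1.33 in O2. With size factors of DESeq2 the number of genes with a smaller SD was 5, with upper quartile factors it was 56, and with library totals alone it was 844 of 15808, at an SD of 0.20. The separation of Old from Adult held with the size factors of DESeq2, but with upper quartile factors the Old mice ran from 291 to 340 CPM against 336 to 395 in Adult, and with library totals alone from 284 to 406 against 328 to 400. Leaving O5 out left 78 genes with a smaller SD. The genes most like Igf1 over the 15 mice were Gm6206, Atad1 and Ttc39b, with r of 0.87, 0.84 and 0.82.

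**Figure D2:**
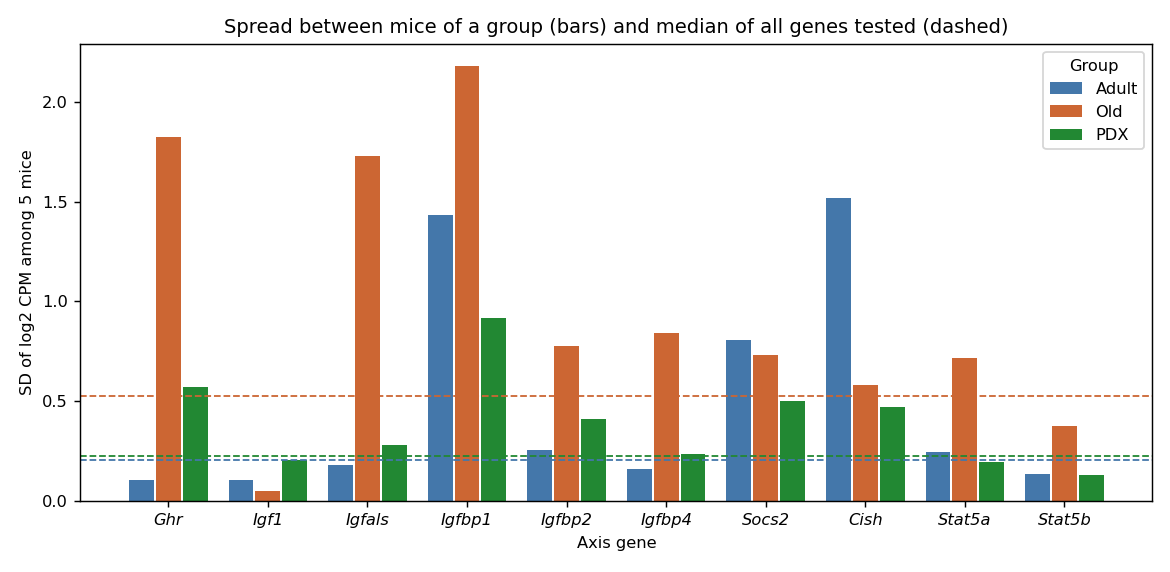
SD of log2 CPM among the 5 mice of each group for the 10 axis genes (bars), with the median SD of all 15808 genes in each group (dashed lines). In the Old group Igfbp1, Ghr and Igfals stand far above the dashed line and Igf1 stands near 0.

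Set against Ghr in the same mouse, Igf1 was 0.79 to 0.96 of the Ghr level in CPM in Adult mice. This ratio was 0.25 in O1 and 7.53 in O5. The deviations of Igf1 and Ghr from their group means were weakly related over the 15 mice, with Pearson r = 0.11 (permutation p = 0.533, adjusted p = 0.640 over 6 pairs of axis genes) and Spearman rho = 0.16 (permutation p = 0.557, adjusted p = 0.790), and r was 0.24 without O1 and O5. None of the 6 pairs passed after adjustment.

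Igfals (ENSMUSG00000046070, chr17:24865997-24882010, plus strand) encodes the acid labile subunit that stabilizes IGF in blood. The Adult mice had 161, 178, 140, 175 and 195 CPM. The Old mice had 172, 80.0, 136, 157 and 9.70 CPM. The PDX mice had 120, 144, 104, 142 and 174 CPM. O5 stood alone, 15.1-fold below the median of the other Old mice, O2 was the next lowest of the 15, and the other Old mice lay within or just under the Adult range. The ratio of Igfals to Igf1 in CPM was 0.03 in O5 and 0.26 to 0.54 in the other mice. The means were 170 ± 20.8, 111 ± 66.4 and 137 ± 26.4 CPM (SD, n = 5 each). The log2 fold change for Old over Adult was -0.61 (SE 0.46, edgeR adjusted p = 0.410), and it was -0.32 without O5 and -0.12 without O2 and O5. For PDX over Old it was 0.30 (SE 0.46, edgeR adjusted p = 0.874), and it ran from 0.01 without O5 to 0.51 without O1. The nearest genes in pattern were Msrb1, Prr16 and Zfp983, with r of 0.99, 0.99 and 0.98, which became 0.92, 0.84 and 0.84 without O5.

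The hepatocyte gene Alb, which encodes albumin, had 34724 CPM in O5 against 105807 to 115896 CPM in Adult mice, so that it was lower there too, by less than Igfals or Ghr were. O2, with the lowest Igfbp2 of the 15 mice and the lowest Ghr, Igfals and Igfbp4 after O5, had the highest sum of the 8 Kupffer cell and macrophage markers (3402 CPM, against 466 to 705 in Adult and 340 in O5) and the highest sum of the 8 T and NK cell markers (78.4 CPM, against 4.50 to 9.71 in Adult). The part of cell content in these values was not tested.

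Igfbp1 (ENSMUSG00000020429, chr11:7197782-7202546, plus strand), the binding protein of the fasted state, had the widest range of the axis. The Adult mice had 75.9, 224, 134, 20.3 and 220 CPM. The Old mice had 129, 252, 187, 728 and 5504 CPM. The PDX mice had 520, 457, 149, 158 and 153 CPM. O5 was 25.1 times the median of the other Old mice and O4 was second of the 15, and the remaining Old mice ran from 129 to 252 CPM, partly within the Adult range. The means were 135 ± 89.0 CPM in Adult, 1360 ± 2329 in Old and 287 ± 185 in PDX mice (SD, n = 5 each). Old over Adult had a log2 fold change of 3.34 (SE 1.00, edgeR unadjusted p = 0.00463), with an adjusted p of 0.0571 that missed the threshold of 0.05.

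This gene was the only axis gene whose call depended on the setting. It was called by DESeq2 (log2 fold change 3.35, adjusted p = 0.00695), and by edgeR without O1 (adjusted p = 0.0358) or without O3 (adjusted p = 0.0307). Without O5 the log2 fold change was 1.27 (edgeR adjusted p = 0.200), and over all alternatives of edgeR and DESeq2 the adjusted p ran from 0.00695 to 0.241. For PDX over Old it was -2.24 (SE 0.96, edgeR unadjusted p = 0.0337, adjusted p = 0.793), and without O5 it was -0.17. For PDX over Adult it was 1.09 (SE 0.93, edgeR adjusted p = 0.541). The genes closest to Igfbp1 were Kpnb1, a nuclear import receptor gene, Syncrip, which encodes an RNA binding protein, and Tspyl2. Their r was 0.92, 0.91 and 0.91, which became 0.87, 0.81 and 0.79 without O5.

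Of the fasting and FOXO1 target genes, listed because Igfbp1 belongs to that response, 1 of 12 was called between Old and Adult, against 6.78% of all genes. This was Irs2, which encodes an insulin receptor substrate. Irs2 had 15.3 to 34.8 CPM in Adult mice, 26.9, 38.2, 42.4, 97.6 and 162 CPM in O1 to O5, and 26.7 to 31.3 CPM in PDX mice, so that O4 and O5 led here as they did for Igfbp1. Its log2 fold change was 1.50 (SE 0.40, edgeR adjusted p = 0.0391), and without O5 it was 0.98 (edgeR adjusted p = 0.0497). The median log2 fold change of the 12 genes was 0.08, against 0.07 for all genes tested. None of the 12 was called between PDX and Old or between PDX and Adult.

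The other binding protein genes were more even. Igfbp2 (ENSMUSG00000039323, chr1:72824503-72852474, plus strand), abundant in the fetal liver and again in fasting, had 612, 421, 421, 571 and 448 CPM in Adult, 883, 225, 534, 687 and 745 CPM in Old and 588, 296, 535, 549 and 552 CPM in PDX mice. O1 was the highest and O2 the lowest of the 15 mice, and P2 stood below the other PDX mice. Igfbp2 had a log2 fold change of 0.31 for Old over Adult (SE 0.29, edgeR adjusted p = 0.517), -0.29 for PDX over Old (SE 0.29, edgeR adjusted p = 0.830) and 0.03 for PDX over Adult (SE 0.29, edgeR adjusted p = 0.971). Old over Adult was 0.54 without O2 and 0.18 without O1, and PDX over Old was -0.50 without O2, -0.14 without O1 and -0.14 without P2. Agpat3, Cenpv and Dstn were nearest in pattern, with r of 0.90, 0.88 and 0.86.

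Igfbp4 (ENSMUSG00000017493, chr11:99041244-99054392, plus strand), whose product holds IGF until the protease PAPP-A cleaves it, had 1555, 1598, 1488, 1915 and 1445 CPM in Adult, 2719, 867, 1234, 1857 and 632 CPM in Old and 2241, 1941, 1502, 1787 and 1567 CPM in PDX mice. O1 was the highest and O5 the lowest of the 15, in the order of Ghr, and O2 was the next lowest. The log2 fold change was -0.13 for Old over Adult (SE 0.31, edgeR adjusted p = 0.821), which turned to 0.06 without O5, and 0.31 for PDX over Old (SE 0.31, edgeR adjusted p = 0.828), which was 0.65 without O1, 0.16 without O2 and 0.11 without O5.

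Counted together, 0 of the 10 axis genes were called by edgeR between Old and Adult, where 6.78% of all genes were called (1072 of 15808). At an unadjusted p under 0.05 there were 2 axis genes, Igfbp1 and Stat5b, against 27.7% of all genes, and DESeq2 called 1, against 14.1%. The point estimates were higher in Old for 4 and lower for 6, with a median log2 fold change of -0.11, against 0.07 over all genes. Between PDX and Old 0 were called at the study's threshold of 0.25, as were 0% of all genes, with 1 axis gene (Igfbp1) at an unadjusted p under 0.05 against 5.28% of all genes, and DESeq2 called 0 axis genes and 0.00344% of all genes. No axis gene separated PDX from Old without overlap, against 0.342% of all genes. Between PDX and Adult 0 were called, against 2.66% of all genes (1.76% higher and 0.898% lower in PDX), with 0 at an unadjusted p under 0.05 against 20.6%, and DESeq2 called 0, against 7.7%. No axis gene separated PDX from Adult without overlap, against 19.9% of all genes. These 3 comparisons share groups, so they are not independent of each other. A p that misses the threshold does not show that groups were alike, and the SE of 0.12 for Igf1 and 1.00 for Igfbp1 mark how unequal the precision was.

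**Figure D3:**
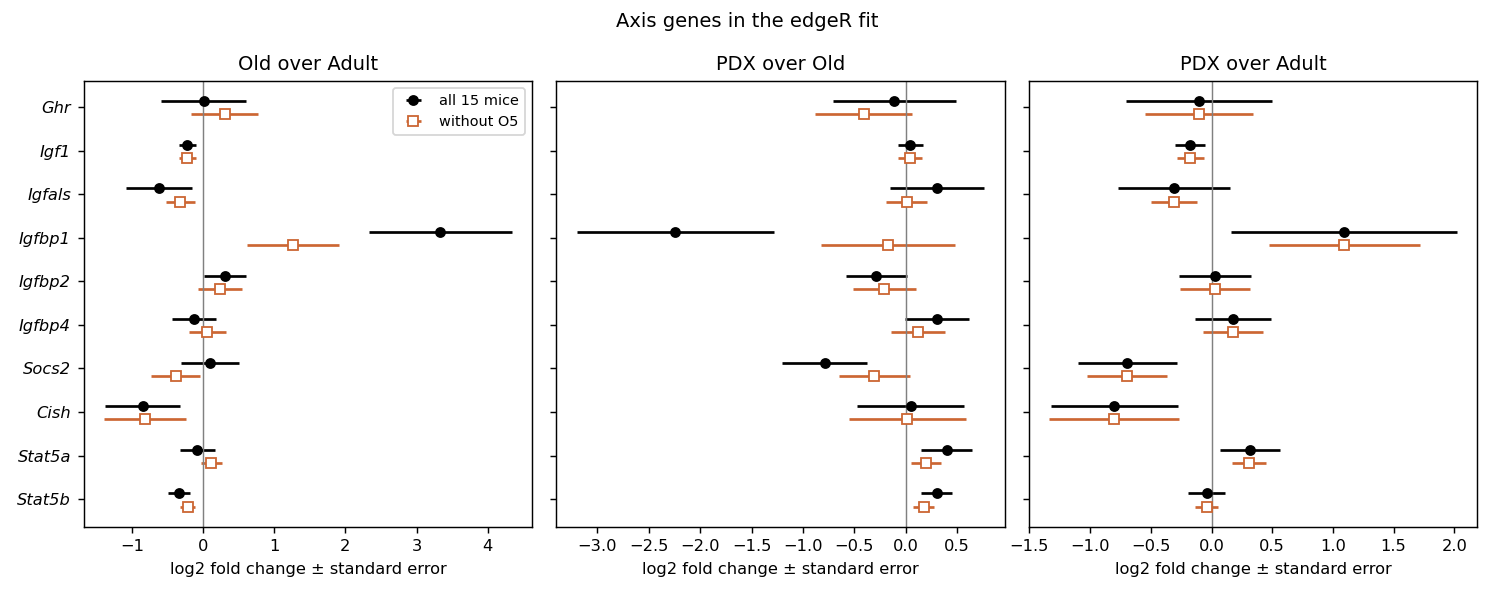
Log2 fold change of each axis gene in the 3 comparisons, with bars for the standard error of the edgeR fit, for all 15 mice (filled circles) and without O5 (open squares). Leaving out O5 moves Igfbp1 from 3.34 to 1.27 in Old over Adult and leaves Igf1 at -0.22.

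The rest of the pathway was read from a list of 32 other signal, ligand, receptor and protease genes, of which 28 were tested. Igf2, Pappa, Pappa2 and Stc1 did not pass the filter, and Igf2 had no more than 4 counts in any mouse. Between Old and Adult 2 of the 28 rose and 1 fell, and the median log2 fold change was 0.30, against 0.07 for all genes. Over all genes 4.71% rose and 2.07% fell. Socs3, the suppressor induced by interleukin 6 and other cytokines, rose from 6.87 to 17.1 CPM in Adult to 22.1 to 39.1 CPM in Old mice (log2 fold change 1.40, SE 0.35, edgeR adjusted p = 0.0322). Irs2 rose as given above, and Irs1, which encodes the other main insulin receptor substrate of the liver, fell from 30.1 to 38.1 CPM to 10.9 to 24.3 CPM (log2 fold change -0.85, SE 0.22, edgeR adjusted p = 0.0380). Neither Socs3 nor Irs1 overlapped between Old and Adult mice, and in all 4 of the 28 did not overlap, against 8.13% of all genes. Without O2 and O5 the adjusted p of Socs3 was 0.0775, of Irs1 0.0885 and of Irs2 0.0519.

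Between PDX and Old none of the 28 was called by edgeR. Between PDX and Adult Socs3 rose (log2 fold change 1.76, SE 0.36, edgeR adjusted p = 0.0162) and Irs1 fell (log2 fold change -1.05, SE 0.22, edgeR adjusted p = 0.0223). Cux2, a repressor gene with higher expression in female liver, rose as well (log2 fold change 1.32, SE 0.28, edgeR adjusted p = 0.0216), from 19.0 to 46.7 CPM in Adult to 47.8 to 114 CPM in PDX mice. These were 2 rises and 1 fall of the 28, against 1.76% and 0.898% of all genes. The PDX and Adult values of 12 of the 28 did not overlap, against 19.9% of all genes. Jak2, the kinase that carries the receptor's signal, had 14.8 to 18.3 CPM in Adult and 11.6 to 28.2 CPM in Old mice (log2 fold change 0.04, SE 0.20, edgeR adjusted p = 0.911). Igf1r, the IGF receptor gene, which hepatocytes express little, had 9.13 CPM in O5 against 3.24 to 3.97 CPM in Adult mice (Old over Adult log2 fold change 0.61, SE 0.26, edgeR adjusted p = 0.138). Igfbp3, whose product carries IGF together with the acid labile subunit and which is made mainly by non-parenchymal cells, had 96.5 CPM in O5 and 20.0 to 45.1 CPM in the other Old mice (log2 fold change 0.58, SE 0.33, edgeR adjusted p = 0.260). The 8 sinusoidal endothelium markers summed to 171 CPM in O5 and to 361 to 395 CPM in Adult mice, and the 8 stellate cell and fibroblast markers to 1023 and to 376 to 413 CPM. The part of these cells in the values of O5 was not tested.

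Growth hormone also sets the sex bias of liver genes, through its continuous release in females and its pulses in males. Of 20 female-predominant genes, all tested, 1 rose between Old and Adult and 0 fell, against 4.71% and 2.07% of all genes. This was A1bg, with 57.3 to 264 CPM in Adult mice, 7278, 779, 727, 9745 and 0.40 CPM in O1 to O5, and 2494 to 5922 CPM in PDX mice. Its log2 fold change for Old over Adult was 4.74 (SE 1.33, edgeR adjusted p = 0.0453). The other Old mice and all PDX mice stood above every Adult mouse, and O5 stood far below them all. For PDX over Adult its log2 fold change was 4.97 (SE 1.34, edgeR adjusted p = 0.0606), and without O5 the adjusted p was 0.00197. Between Old and Adult 6 of the 20 were called without O5, where 13.2% of all genes were, and 6 without O2 and O5, where 7.12% were. Between PDX and Adult 1 of the 20, Cux2, was called in the fit of all 15 mice, against 2.66% of all genes. That count was 9 without O5, where 10.9% of all genes were called, and 14 without O2 and O5, where 24.6% were. The PDX and Adult values of 13 of the 20 did not overlap, against 19.9% of all genes. The counts without mice and without overlap took both directions together. In the fit of all 15 mice, 10 of the 20 had a positive log2 fold change for Old over Adult. The median was -0.05, against 0.07 for all genes. For PDX over Adult 11 of the 20 were positive, with a median of 0.30, against -0.01.

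Of 20 male-predominant genes 14 were tested, and between Old and Adult 1 rose and 2 fell, against 4.71% and 2.07% of all genes. Serpina12, which encodes the adipokine vaspin, had 0.51 to 2.33 CPM in Adult mice, 34.1, 50.2, 12.7, 11.7 and 1.05 CPM in O1 to O5 and 15.4 to 46.5 CPM in PDX mice (Old over Adult log2 fold change 4.03, SE 0.74, edgeR adjusted p = 0.0112), so that O5 again lay apart from the other Old mice. Nudt7, which encodes a peroxisomal hydrolase of coenzyme A, fell from 113 to 197 CPM to 7.32 to 104 CPM (log2 fold change -1.61, SE 0.43, edgeR adjusted p = 0.0405). Slco1a1, an organic anion transporter gene too low for the naming rule and named because it was the other fall, had 3.78 to 33.5 CPM in Adult and 0 to 1.13 CPM in Old mice (edgeR adjusted p = 0.00569). Between PDX and Old none of the sex-biased genes was called. Between PDX and Adult 2 male-predominant genes rose and 1 fell, against 1.76% and 0.898% of all genes. Without O5, 8 of the 14 were called, where 10.9% of all genes were, and 10 without O2 and O5, where 24.6% were. The PDX and Adult values of 7 of the 14 did not overlap, against 19.9% of all genes. Between Old and Adult 6 of the 14 were called without O5, where 13.2% of all genes were. That count was 4 without O2 and O5, where 7.12% were. These counts too took both directions together. In the fit of all 15 mice, 7 of the 14 had a positive log2 fold change for Old over Adult. The median was -0.30, against 0.07 for all genes. For PDX over Adult 7 of the 14 were positive, with a median of -0.40, against -0.01.

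Acute phase genes were high in O5 as well. Of the 18 listed, 8 rose and 0 fell between Old and Adult, against 4.71% and 2.07% of all genes, and the median log2 fold change was 1.42, against 0.07 for all genes. Between PDX and Adult 11 rose and 0 fell, against 1.76% and 0.898% of all genes, and the median was 1.64, against -0.01. Their summed level was 25361 to 31441 CPM in Adult, 33013 to 132443 CPM in Old, highest in O5, and 44462 to 121423 CPM in PDX mice. The steepest rises between Old and Adult were those of Lcn2 (log2 fold change 4.74, SE 0.71, edgeR adjusted p = 0.00416), Orm2 (3.02, SE 0.80, edgeR adjusted p = 0.0386) and Saa3 (2.96, SE 0.46, edgeR adjusted p = 0.00516), and without O5 the adjusted p of Orm2 was 0.0575. Lcn2 had 919 CPM in O5, the mouse with the lowest Ghr and Igfals, and 1201 CPM in P2, whose Ghr was 312 and Igfals 144 CPM. The part of the acute phase response in the axis values was not tested.

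Of the other cell type lists, the neutrophil markers rose between Old and Adult in 7 of 7 tested and the B and plasma cell markers in 6 of 8, where 4.71% of all genes rose. Without O2 and O5 these were 3 of 7 and 6 of 8, where 7.12% of all genes were called. The stellate cell list had 2 of 8 that rose, Des and Col1a1, and the hepatocyte list 1 of 8 that fell, the urea cycle gene Ass1, and 0 were called of the Kupffer cell and macrophage, T and NK cell, sinusoidal endothelium, cholangiocyte and erythroid lists. The neutrophil sums were 2.35 to 6.16 CPM in Adult and 18.4 to 223 CPM in Old mice, with 35.5 in O5 and 223 in O2, and the B and plasma cell sums were 27.2 to 57.8 and 220 to 1117 CPM.

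Frailty was scored for each mouse with a frailty index built from rated health deficits, and O5 had the highest value, 0.56, and the largest loss of body weight. In the tally of positive frailty criteria given for each mouse, O5 shared the top place with O4 and P5. The shortest treadmill distance was that of O2. Neither the tally nor the treadmill distance was used here. The values of the other Old mice were 0.17, 0.11, 0.19 and 0.33 for O1 to O4, and PDX mice had 0.06 to 0.26. Over the 10 mice of 22 months, 20 relations of axis genes with the index or with the change of body weight were examined. Old and PDX mice were pooled and values were shuffled across both groups, so treatment was not accounted for. After adjustment 0 passed (smallest adjusted permutation p = 0.205 for Pearson's r and 0.795 for Spearman's rho). Igfbp1 had r = 0.73 with the index (permutation p = 0.0459, adjusted p = 0.205) and rho = 0.24 (permutation p = 0.506, adjusted p = 0.795), and r was -0.64 without O4 and O5. Ghr had r = -0.68 (permutation p = 0.0503, adjusted p = 0.205) and rho = -0.34 (permutation p = 0.335, adjusted p = 0.795), and r was -0.13 without these mice. Igf1 had r = -0.05 (permutation p = 0.869, adjusted p = 0.869) and rho = -0.10 (permutation p = 0.776, adjusted p = 0.863), and r was -0.03 without them. Stat5a had the strongest r with the index, -0.78 (permutation p = 0.0474, adjusted p = 0.205), and rho = -0.18. Without O4 and O5 the r of Stat5a was -0.08. With the change of body weight Igfbp2 had r = -0.67 (permutation p = 0.0438, adjusted p = 0.205) and rho = -0.28. Without O2 and O5 the r of Igfbp2 was 0.16. The relations of Igfbp1, Ghr and Stat5a with the index thus rested on the Old mice with the highest values.

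**Figure D4:**
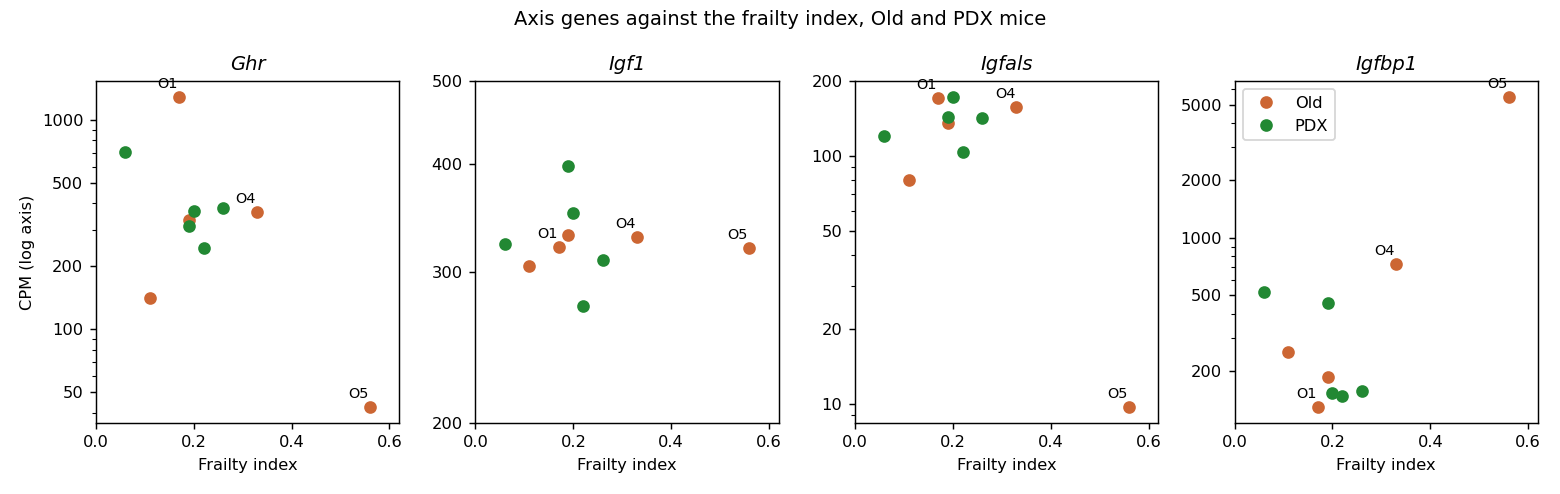
Level of Ghr, Igf1, Igfals and Igfbp1 in CPM (log axis) against the frailty index of each of the 5 Old and 5 PDX mice, with O1, O4 and O5 labelled. O5, at an index of 0.56, has the lowest Ghr and Igfals and the highest Igfbp1, and its Igf1 of 319 CPM lies among the other mice.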

How the data were processed

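Poly(A) RNA of 15 livers was sequenced in strand-specific paired libraries. The authors aligned reads with STAR 2.6.0c to mm10 and made raw counts per gene with featureCounts (Subread 1.6.2, Ensembl 100), keeping unique proper pairs of non-mitochondrial genes on the annotated strand. They also deposited log2-scale values from the variance stabilizing transformation of DESeq2 1.23.10, used here only as an alternative for correlations. RNA integrity per mouse, hour of collection and euthanasia batch were not used here, and the time on gavage is 9 weeks per the labels' protocol and 8 in the design text. Of 55450 IDs 55104 received a symbol, and 0 columns lacked a sample.

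Genes were filtered (filterByExpr, minimum count 10, minimum total 15), scaled with TMM and fitted in 1 quasi-likelihood model of all 15 mice with edgeR 4.0.16 in R 4.3.3, as the counts require. Standard errors are the log2 fold change over the root of F. Adjusted p-values are Benjamini-Hochberg over 15808 genes, with thresholds of 0.05 and, between PDX and Old, 0.25. CPM use TMM-scaled totals, and log2 CPM a prior count of 2. FPKM use exon lengths from GENCODE M21 on GRCm38, the assembly of mm10. Correlations used 100000 two-sided permutations (seed 1), for pairs of genes on deviations from group means. The scripts were tested on simulated data. Replicates are separate mice.

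The members and lists were chosen with earlier results of these data known. Besides the 10 axis genes, the text names Jak2, Igf1r and Igfbp3, up to 3 rises and 3 falls per list past the threshold between Old and Adult with mean log2 CPM of at least 1, and the 3 genes most like each of 6 axis genes; other names were chosen after their values were seen. Alternatives were DESeq2 1.42.0, other scalings, no low-count filter, fits of the 10 mice compared, the replicate number as a block and leaving mice out. Scaling of the Igf1 spread and all-gene shares without O5 or without O2 and O5 were added after seeing the data.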

Additional observations from a re-analysis of the deposited data

Results flagged for a closer look

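In each of 30 sets of 5 values (10 axis genes in 3 groups), the gap in log2 CPM between the most extreme mouse and its nearest neighbour was set against the range by Dixon's test at the 95% level, which flags about 1 set in 20 by chance, and 4 sets stood out. The same ratio on CPM itself, added after seeing the data, marked 5 sets, of which Socs2 in O5 and Igfbp2 in P2 were marked on both scales. Igfals in O5 was 9.70 CPM, below the other Old mice, and stood out on the log2 scale alone. Socs2 in O5 was 81.9 CPM, above the other Old mice. Igfbp2 in P2 was 296 CPM, below the other PDX mice. Stat5b in P3 was 57.8 CPM, also below the other PDX mice, and stood out on the log2 scale alone. On the CPM scale alone the sets that stood out were Ghr with 1297 CPM in O1, Igfbp1 with 5504 CPM in O5 and Stat5a with 27.5 CPM in A5, each above the rest of its group.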

How the results depend on the processing

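Of 660 fold changes of axis genes under alternative settings, 625 kept their direction and their side of the threshold, 3 passed it anew (Igfbp1 between Old and Adult, given above) and 32 turned sign; the cause of each was not tested. No axis gene was called between PDX and Old or between PDX and Adult under any setting run.

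Between Old and Adult the 1072 calls became 2642 with DESeq2, 665 without the low-count filter, 105 with the 10 mice of these groups alone and 156 to 2178 without 1 mouse (156 without A5, 2178 without O3, 2115 without O5, and past 1.5 times from 1072 also without A1, A2, A3, A4, O2 or P4), and axis genes called became 1 with DESeq2 and 0 to 1 without 1 mouse. Between PDX and Old the calls were 1 with DESeq2. Between PDX and Adult the 420 calls became 1401 with DESeq2, 4529 with these 10 mice alone, 4004 without O2 and O5, and 166 to 1766 without 1 mouse (166 without A5, 1766 without O2, and past 1.5 times from 420 also without A1, A2, A3, A4, O5 or P1 to P4).

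Old over Adult log2 fold changes ran, without 1 mouse, from -0.96 to 0.31 for Ghr, -0.39 to 0.41 for Socs2, -0.19 to 0.12 for Stat5a and -0.461 to 0.0605 for Igfbp4. PDX over Old ran from -0.42 to 0.87 for Ghr, -0.12 to 0.23 for Cish and -0.0291 to 0.107 for Igf1. PDX over Adult ran from -0.0351 to 0.168 for Igfbp2, -0.0781 to 0.0116 for Stat5b and -0.407 to 0.0326 for Ghr. Without O2 and O5, Old over Adult was 0.29 for Igfbp4, -0.46 for Socs2 and 0.10 for Stat5a, and PDX over Old was -0.17 for Igfals and -0.0934 for Igfbp4.

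With the replicate block there were 237 calls between Old and Adult, and the log2 fold change was -0.60 for Ghr in Old over Adult, 0.30 for Ghr in PDX over Old and -0.0156 for Igfbp2 in PDX over Adult. Mice share only a number: deviations of same-numbered mice correlated at -0.22 to -0.11 between Old and Adult, -0.04 to 0.29 between PDX and Old and -0.05 to 0.15 between PDX and Adult, and not every mouse correlated best with its own number.

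Without the 2 mice farthest from the median, r with the frailty index turned to 0.40 for Igfals, -0.64 for Igfbp1, 0.0223 for Igfbp4, -0.18 for Socs2 and 0.0115 for Stat5b, and r with weight change to -0.13 for Igfals, 0.55 for Igfbp1 and 0.16 for Igfbp2. For Socs2 with Cish r turned to -0.0091, and for Igfbp1 with Igfbp2 on the log2-scale values to 0.0005. Relations within the Old or PDX mice alone were not run, since 5 mice are too few.

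The lowest count of an axis gene was 161, and for most of these genes the differences between mice were large beside counting error.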
